A study of Mus musculus with 8 samples.

Results

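The genes described here are the axonemal dyneins, the motors that make cilia beat, together with the factors that build those motors and hold them in place. They were taken from the deposited count table by gene symbol, as the rows named Dnah, Dnai, Dnaic or Dnaaf followed by a number, plus Dnal1, Dnal4, Dnali1, Ccdc39, Ccdc40, Ccdc103, Zmynd10, Lrrc6, Pih1d3 and the 4 outer arm docking genes Odad1 to Odad4. Of 27179 genes in the table, 36 were members: 32 under the symbols of the rule and the 4 docking genes under their older symbols Ccdc114 (Odad1), Armc4 (Odad2), Ccdc151 (Odad3) and Ttc25 (Odad4). Grouped by what they do, these were 15 heavy chains, 2 intermediate chains, 3 light or light-intermediate chains, 4 docking genes, 2 genes of the axonemal ruler and 10 assembly factors.

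Bulk RNA-seq had been performed on cells sorted from lungs of mice (C57BL/6 in the labels, female C57BL/6J in the study's methods) carrying Eml4-Alk tumors, which form after an adenovirus delivers Cas9 and guide RNAs that join the 2 genes. The mice, aged 18 to 22 weeks and 11 to 12 weeks past tumor induction, had received 4.5 nmol of the protease-activated probe QZ1-(PEG2K) by tail vein 2 h before the lungs were taken. Live cells negative for the leukocyte surface proteins CD45 and CD11b were sorted by probe signal into QZ1-hi and QZ1-lo cells, with 4 libraries each. The gates were drawn on a plot of probe signal against the epithelial protein EpCAM. The study gives cutoffs in probe signal and none in EpCAM, and cells between the cutoffs fell in neither group. Both groups therefore share the genotype, the tumor induction and the probe and differ only in the gate, there is no library from a tumor-free or probe-free lung, and the labels do not say which libraries came from one animal. The labels call the 4 libraries of a group biological replicates without naming the animals, so p-values measure the spread between these libraries.

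Motile cilia of the airway are built on microtubule doublets that slide past each other, driven by rows of dynein arms. Outer arms are thought of as setting the power and frequency of the beat and inner arms its waveform. Each arm is made of heavy chains, which are the ATP-consuming motors, with smaller intermediate and light chains, and is put together in the cytoplasm by HSP90-linked assembly factors before it enters the cilium and attaches to a docking complex. Loss of single members of this machinery causes primary ciliary dyskinesia, and in the lung the multiciliated cells of the airway epithelium are the cells known for expressing it.

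Total counts were 18380918 to 26847938 per library, and 3 counts corresponded to 0.0894 to 0.179 CPM (counts scaled to a common library size), a limit that covers counting error only. CPM values here are scaled by edgeR's TMM factors, which were 0.660 to 1.35. Mitochondrial ribosomal RNA took 39.5% to 58.4% of the counts in QZ1-hi and 30.2% to 47.3% in QZ1-lo, and with mitochondrial and ribosomal RNA genes removed 27 members were called lower, beside 28 with them. The groups were compared for 15583 genes with edgeR (quasi-likelihood test, Benjamini-Hochberg adjusted p, called under 0.05), which placed 1280 genes lower and 1540 higher in QZ1-hi, or 2509 and 882 when scaled by library size only.

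To show sequence around a start of members that moved, stretches upstream of an annotated start of each gene were taken from RefSeq promoters. These were on GRCm38.p6, the mm10 build named in the submitters' processing notes. Genes of motile cilia are known targets of the transcription factor FOXJ1 and of RFX factors, whose X-box is an inverted pair of sites close to GTTGCC. A set of 3 inner arm heavy chain genes on chromosome 1 are near copies of each other, and their printed stretches, with capitals marking the same inverted repeat in each, read 5′ to 3′ along the gene's strand as follows.
Dnah7a, chr1:53706821-53706931, minus strand, 147 to 37 bases upstream: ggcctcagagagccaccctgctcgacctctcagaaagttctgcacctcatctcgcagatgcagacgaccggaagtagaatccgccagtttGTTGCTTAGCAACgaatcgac
Dnah7b, chr1:46066739-46066849, plus strand, 114 to 4 bases upstream: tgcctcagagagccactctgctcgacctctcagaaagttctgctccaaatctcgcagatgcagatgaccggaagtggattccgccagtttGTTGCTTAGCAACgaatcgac
Dnah7c, chr1:46425359-46425469, plus strand, 159 to 49 bases upstream: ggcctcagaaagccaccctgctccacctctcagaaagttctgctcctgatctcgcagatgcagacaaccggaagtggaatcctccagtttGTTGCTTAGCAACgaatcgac

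A pair of further members, the inner arm heavy chain Dnah6 and the outer arm intermediate chain Dnaic2, held a repeat of the same form that differs in its central letters, again in capitals.
Dnah6, chr6:73221647-73221707, minus strand, 76 to 16 bases upstream: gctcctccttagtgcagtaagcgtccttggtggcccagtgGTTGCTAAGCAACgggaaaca
Dnaic2, chr11:114727346-114727406, plus strand, 73 to 13 bases upstream: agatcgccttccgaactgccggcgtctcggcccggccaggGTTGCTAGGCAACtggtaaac

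For contrast, the stretch of Dnaaf2, an assembly factor that was not called, is shown with the opposite-strand form of the motif GTTGCCAT in capitals, and that of Dnah10, an inner arm heavy chain that fell, with 1 copy of GTTGCC in capitals.
Dnaaf2, chr12:69198430-69198490, minus strand, 61 to 1 bases upstream: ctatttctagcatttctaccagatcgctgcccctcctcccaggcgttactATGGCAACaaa
Dnah10, chr5:124725024-124725084, plus strand, 61 to 1 bases upstream: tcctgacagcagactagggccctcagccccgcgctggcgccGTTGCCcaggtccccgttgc

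By the GENCODE M21 annotation, the stretches of Dnah7a, Dnah7c and Dnaic2 overlap no exon. That of Dnah7b overlaps an exon of a Dnah7b transcript that starts further upstream, that of Dnah6 reaches the first bases of its first exon, and those of Dnaaf2 and Dnah10 lie opposite exons of the noncoding genes 9330151L19Rik and 4930404A12Rik. Positions of whole genes given below are those of RefSeq on GRCm38.p6. In those spans the printed stretches of Dnah7a, Dnah7b, Dnah6, Dnaic2 and Dnaaf2 lie inside the gene, and that of Dnah7c lies partly inside. Dnaic2, for example, spans chr11:114721341-114757889. The starts used for these stretches are therefore not the outermost starts of these genes.

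Expression of the ciliary motors was lower in the QZ1-hi cells, and the fold changes of all 34 tested members were below 0. Of the 36 members, 34 passed the low-count filter, 28 were called lower in QZ1-hi, against 8.21% of all genes tested, and 0 were higher, against 9.88%. In each of the 29 members whose libraries did not overlap, all QZ1-hi libraries lay below all QZ1-lo libraries, a pattern that held for 10.7% of all genes tested. Log2 fold changes, QZ1-hi relative to QZ1-lo throughout, ran from -2.40 to -0.36 with a median of -1.89, beside a median of 0.02 over all genes tested. Among the called members, 14 were below -2, where 1.59% of all genes were called, and 27 were below -1, where 4.85% were. In bulk RNA, fewer ciliated cells and less of these transcripts per ciliated cell cannot be told apart.

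The summed level of all members was 163, 439, 264 and 343 CPM in QZ1-hi replicates 1 to 4 and 842, 1366, 1615 and 1148 CPM in QZ1-lo replicates 1 to 4. The highest QZ1-hi library, replicate 2, thus stayed below the lowest QZ1-lo library, replicate 1. The spread within each group was itself large. Replicate numbers follow the order of the records and only name a library. Whether equal numbers in the 2 groups come from one animal is not known. Values listed for single genes are in the same order of replicates.

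**Figure D1:**
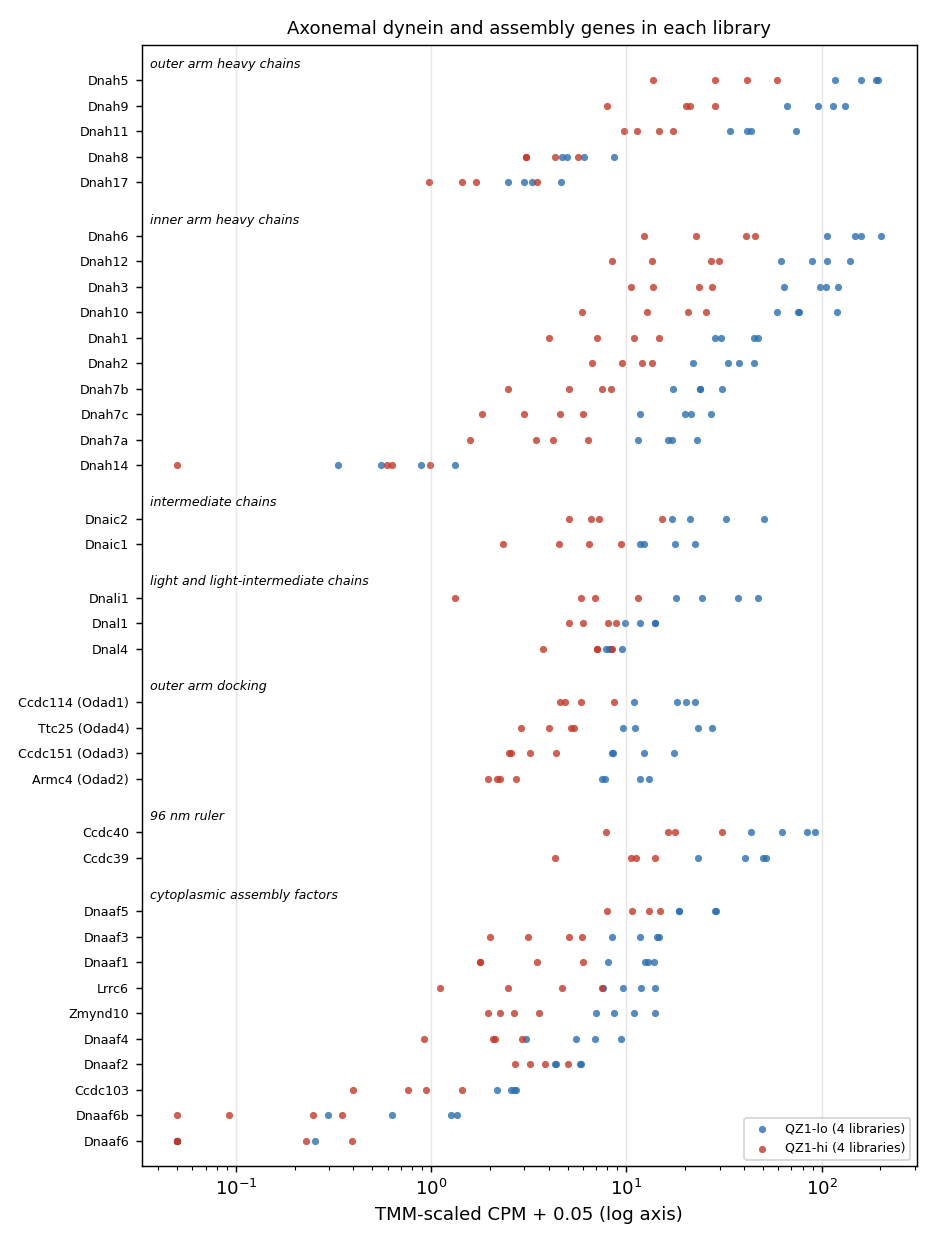
TMM-scaled CPM, plotted after adding 0.05 on a log axis, of all 36 members in each QZ1-lo library (blue, 4 points a gene) and QZ1-hi library (red, 4 points a gene), grouped by role and ordered by their QZ1-lo mean. In most rows the red points lie wholly left of the blue ones, and in Dnah8, Dnah17, Dnah14, Dnal4, Dnaaf2, Dnaaf6 and Dnaaf6b they overlap.

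Among the outer arm heavy chains, the 3 used in respiratory cilia fell and the 2 known from sperm flagella were not called. Dnah9, the heavy chain of the distal outer arm, at chr11:65831324-66168581 (minus strand), had 7.92, 28.4, 20.2 and 21.04 CPM in QZ1-hi and 66.4, 114, 132 and 95.7 CPM in QZ1-lo. The groups were well apart at -2.40 ± 0.34, adjusted p = 0.000803, where a value before adjusted p is the log2 fold change with its SE from edgeR, here and below. Dnah5, present in outer arms along the whole respiratory cilium and mutated in many patients with primary ciliary dyskinesia, had the highest CPM of all members, averaging 165 ± 35.2 CPM over the QZ1-lo libraries and 35.5 ± 19.2 CPM over the QZ1-hi libraries (mean ± SD, n = 4 each). Its change was -2.21 ± 0.36, adjusted p = 0.00166.

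Dnah11, which takes the place of Dnah9 in the proximal part of the cilium, changed least of the called outer arm motors. It had 9.66, 17.3, 11.3 and 14.7 CPM in QZ1-hi and 34.02, 43.5, 74.2 and 41.3 CPM in QZ1-lo. The fold change was -1.87 ± 0.26, adjusted p = 0.000756, and QZ1-lo replicate 3 stood above the other QZ1-lo libraries.

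The sperm heavy chains were far lower in both groups. Dnah8 had 4.28, 3.01, 3.01 and 5.60 CPM in QZ1-hi and 8.56, 4.64, 4.92 and 6.02 CPM in QZ1-lo, with QZ1-hi replicate 4 above 2 of the QZ1-lo libraries (-0.60 ± 0.31, adjusted p = 0.23). Dnah17 had 1.65, 1.38, 0.925 and 3.46 CPM in QZ1-hi and 2.95, 3.25, 2.42 and 4.58 CPM in QZ1-lo, and its groups overlapped as well (-0.83 ± 0.45, adjusted p = 0.261). With scaling by library size only, which moves all genes down, both passed the threshold (adjusted p = 0.0399 for Dnah8 and 0.0499 for Dnah17, edgeR). Whether they differ in response from Dnah5, Dnah9 and Dnah11 was not tested by the edgeR fit.

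Inner arm heavy chains moved together: 9 of 10 fell, with fold changes from -2.40 to -1.73, and 8 of the 9 were below -2. Dnah7c, a single-headed inner arm motor, had 1.78, 5.98, 2.95 and 4.53 CPM in QZ1-hi and 11.8, 21.4, 26.96 and 19.97 CPM in QZ1-lo. Its fold change of -2.40 ± 0.37, adjusted p = 0.00118 was the largest of the inner arm genes.

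Dnah2, a heavy chain of the 2-headed inner arm, fell least. It had 6.61, 13.5, 9.42 and 11.9 CPM in QZ1-hi and 21.97, 33.03, 44.9 and 37.7 CPM in QZ1-lo. No library of one group reached the other (-1.73 ± 0.26, adjusted p = 0.00109). Dnah10, its partner in that arm, was at -2.35 ± 0.38 (SE), and the single-headed motors Dnah1, Dnah3, Dnah6, Dnah12, Dnah7a and Dnah7b lay between -2.38 and -2.05, with adjusted p from 0.00051 to 0.00246.

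Dnah14, a little-studied heavy chain, was barely detected, with 0.932, 0.543, 0.578 and 0 CPM in QZ1-hi and 0.835, 0.285, 0.507 and 1.27 CPM in QZ1-lo. A difference was not detectable at this depth (-0.47 ± 0.90, adjusted p = 0.794).

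Reads of the 3 Dnah7 genes are hard to assign, since 38.6% (Dnah7a), 30.0% (Dnah7b) and 46.8% (Dnah7c) of their exonic stretches of 50 bases recur in another gene. Dnah7b (chr1:46066071-46373551) and Dnah7c (chr1:46425428-46807477) lie near each other on the plus strand of chromosome 1, and Dnah7a (chr1:53396995-53707301) lies on the minus strand. Their separate counts are therefore uncertain, and without all 3 of them 25 of 31 tested members were lower, with a median of -1.86.

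Both intermediate chains of the outer arm fell. Dnaic2 had 5.04, 15.2, 6.53 and 7.21 CPM in QZ1-hi and 17.02, 32.3, 50.5 and 21.1 CPM in QZ1-lo (-1.83 ± 0.40, adjusted p = 0.00806). Dnaic1, its partner at the base of the arm, had 2.29, 9.34, 6.36 and 4.47 CPM in QZ1-hi and 11.6, 22.5, 17.7 and 12.2 CPM in QZ1-lo (-1.51 ± 0.38, adjusted p = 0.0175). In both genes QZ1-hi replicate 2 was the highest of its group and came close to the lowest QZ1-lo library without reaching it. The call of Dnaic1 was lost without QZ1-hi replicate 4 (adjusted p = 0.0537) or without QZ1-lo replicate 2 (0.0564, edgeR).

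The light chains spread the widest. Dnali1, a light-intermediate chain of inner arms, had 1.27, 11.4, 6.82 and 5.84 CPM in QZ1-hi and 17.9, 37.3, 47.01 and 24.2 CPM in QZ1-lo. It fell without overlap (-2.32 ± 0.51, adjusted p = 0.0086), and its QZ1-hi libraries ranged widely, from replicate 1 at the bottom to replicate 2 at the top.

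Dnal1, an outer arm light chain that binds the motor domain of a heavy chain, fell much less. It had 5.97, 8.84, 8.04 and 5.01 CPM in QZ1-hi and 11.7, 14.04, 13.9 and 9.74 CPM in QZ1-lo (-0.83 ± 0.23, adjusted p = 0.0279). Its groups were separate by a narrow gap, and leaving out any of 5 libraries ended the call, with adjusted p up to 0.0798 (edgeR).

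Dnal4, a light chain of the outer arm related to the cytoplasmic LC8 chains, had 7.03, 7.06, 8.44 and 3.69 CPM in QZ1-hi and 8.11, 7.85, 9.41 and 8.27 CPM in QZ1-lo. Only QZ1-hi replicate 4 stood clearly below the QZ1-lo libraries, and the fold change of -0.36 ± 0.25, adjusted p = 0.409, was the smallest of all tested members.

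The 4 genes of the outer arm docking complex, which fixes the arm to the doublet, all fell without overlap. Armc4 had 2.12, 2.67, 1.91 and 2.21 CPM in QZ1-hi, the tightest set of values of any docking gene, and 7.42, 12.98, 11.7 and 7.69 CPM in QZ1-lo (-2.16 ± 0.27, adjusted p = 0.00051). Ccdc114 had 4.53, 8.59, 5.78 and 4.83 CPM in QZ1-hi and 10.9, 20.1, 22.5 and 18.2 CPM in QZ1-lo (-1.59 ± 0.28, adjusted p = 0.00226). These were the largest and the smallest change of the complex, with Ttc25 at -2.04 ± 0.36 (SE) and Ccdc151 at -1.91 ± 0.31 (SE) between them.

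Ccdc39 and Ccdc40, the paired coiled-coil proteins that set the spacing of inner arms and radial spokes along the doublet, fell by nearly equal amounts. Ccdc39 had 4.24, 13.9, 11.1 and 10.5 CPM in QZ1-hi and 23.1, 49.9, 51.7 and 40.6 CPM in QZ1-lo (-2.06 ± 0.34, adjusted p = 0.00188). Ccdc40 had 7.84, 30.7, 16.2 and 17.8 CPM in QZ1-hi and 43.7, 84.6, 92.7 and 62.8 CPM in QZ1-lo (-1.97 ± 0.36, adjusted p = 0.00313). The order of the libraries within QZ1-lo was the same in both genes, with replicate 3 highest and replicate 1 lowest.

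Of the 10 assembly factors, 6 fell, 2 were not called and 2 did not pass the filter. Zmynd10, a cytoplasmic co-chaperone needed for both outer and inner arms, had 1.91, 3.51, 2.20 and 2.62 CPM in QZ1-hi and 6.95, 13.99, 8.61 and 10.9 CPM in QZ1-lo. The groups were separate (-1.98 ± 0.30, adjusted p = 0.00111), and this was the largest change among the assembly factors.

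Ccdc103, a protein that helps arms attach to the axoneme, was scarce, with 0.89, 1.38, 0.347 and 0.715 CPM in QZ1-hi and 2.68, 2.52, 2.60 and 2.13 CPM in QZ1-lo. Its fold change was -1.56 ± 0.49, adjusted p = 0.0497, just inside the threshold. The call was lost when any library other than QZ1-hi replicate 2 was left out (adjusted p up to 0.118, edgeR), although the libraries of the groups did not overlap. Dnaaf1, Dnaaf3, Dnaaf4 and Dnaaf5 fell by 1.86, 1.62, 1.65 and 1.01 on the log2 scale, with adjusted p from 0.00657 to 0.0216 in edgeR. The call of Dnaaf4 was lost without QZ1-lo replicate 2 (0.0545) or 3 (0.0647) and in limma-voom (0.0822).

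Lrrc6, the partner of Zmynd10, had 1.06, 7.46, 2.43 and 4.65 CPM in QZ1-hi and 7.51, 14.04, 11.9 and 9.62 CPM in QZ1-lo. The groups nearly touched at QZ1-hi replicate 2, and the fold change of -1.47 ± 0.48, adjusted p = 0.055, lay just outside the threshold. Without that library it was -2.02 with an adjusted p of 0.0129 in edgeR, and with all libraries the adjusted p was 0.013 in DESeq2 and 0.0239 in limma-voom.

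Dnaaf2, a co-chaperone that works with heat shock proteins early in arm assembly, had 2.63, 3.80, 4.97 and 3.16 CPM in QZ1-hi and 4.26, 5.82, 5.75 and 4.30 CPM in QZ1-lo. Its groups overlapped (-0.47 ± 0.29, adjusted p = 0.333). Its level is uncertain, because 37.9% of its 50-base stretches recur in the overlapping gene model Gm49383, 32.7% of its exonic bases lie opposite exons of 9330151L19Rik, and the strand setting of the counting is not given in the sources used here. Dnaaf4 likewise shared 56.8% of its stretches with Gm44503 and had 37.4% of its bases opposite Gm37710, and Dnaaf1 (20.7%, opposite Taf1c) and Ccdc39 (16.9%, opposite Ttc14) overlapped an antisense gene to a lesser extent.

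Dnaaf6 and Dnaaf6b, autosomal and X-linked relatives of the PIH-domain co-chaperones, had too few reads to be tested. Dnaaf6 summed to 10 counts over the QZ1-hi libraries and 5 over the QZ1-lo libraries. Dnaaf6b summed to 10 and 95 counts, and in a fit with no filter its log2 fold change was -2.61 ± 1.14 (SE) with an adjusted p of 0.176 in edgeR.

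**Figure D2:**
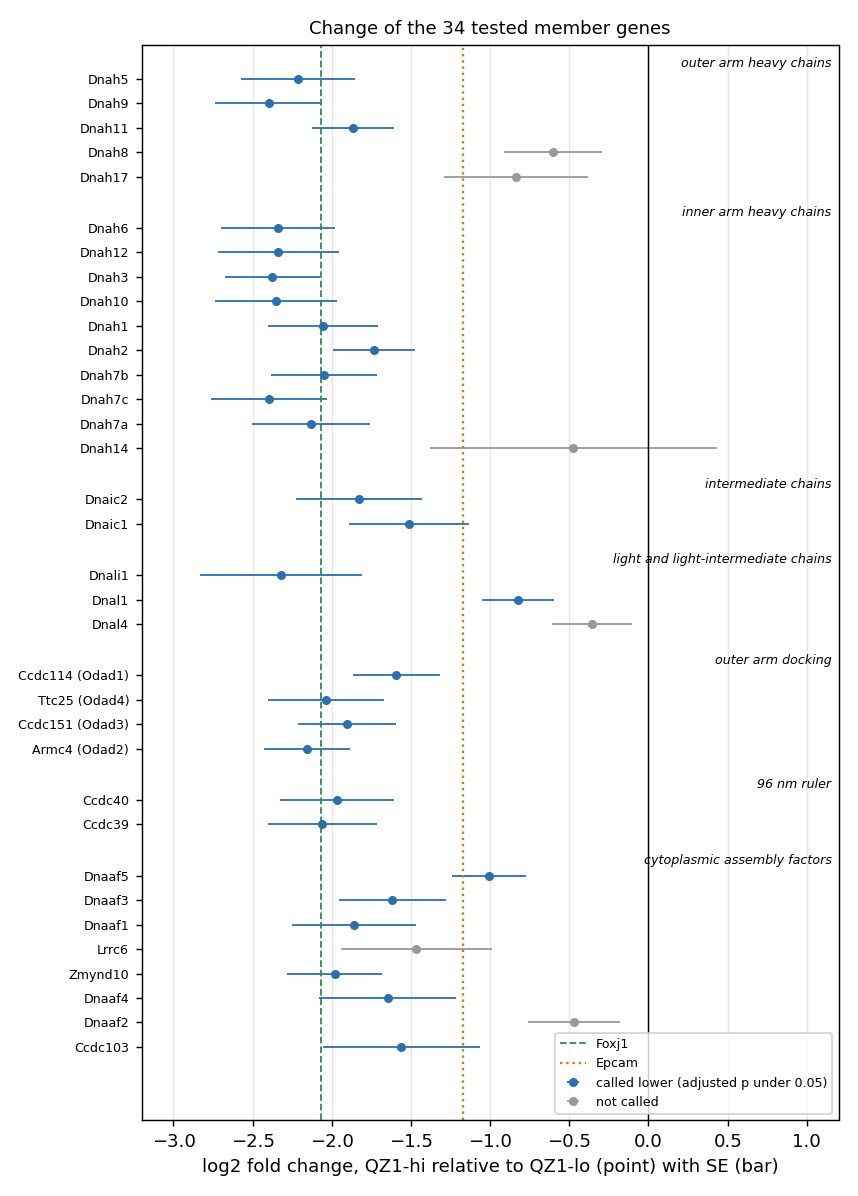
Log2 fold change of QZ1-hi relative to QZ1-lo (points) with its SE (bars) for the 34 tested members by role, with called genes in blue and those not called in grey. Dashed and dotted lines mark Foxj1 (-2.07) and Epcam (-1.17), and every point lies left of 0.

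Compared per kilobase of exonic length, so that genes can be set beside each other, the members spanned a wide range. In QZ1-lo, Dnali1 came first at 14.8 ± 6.12 CPM per kilobase (SD, n = 4), followed by Ccdc40 at 11.8 ± 3.67, Dnah6 at 11.6 ± 2.96 and Dnah5 at 10.5 ± 2.25, which do not differ from each other beyond their spread. Dnah8, Dnah17 and Dnah14 closed the order at 0.225 ± 0.0665, 0.205 ± 0.057 and 0.0446 ± 0.0263 CPM per kilobase. In QZ1-hi, the assembly factor Dnaaf5 came first at 3.31 ± 0.857 CPM per kilobase, up from rank 7 in QZ1-lo, and Dnal4 went from rank 18 to rank 4 at 2.74 ± 0.844, but neither differed from Ccdc40 at 3.01 ± 1.57 and Dnali1 at 2.97 ± 1.95 beyond the spread.

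The make-up of the machinery by role was not the same in the 2 groups. Assembly factors held 34.3%, 27.4%, 26.0% and 25.1% of the members' summed CPM per kilobase in QZ1-hi replicates 1 to 4 and 22.4%, 22.2%, 18.4% and 21.5% in QZ1-lo replicates 1 to 4. Their share was higher in every QZ1-hi library, at 28.2% ± 4.20 (SD, n = 4) against 21.1% ± 1.88 (SD, n = 4). The assembly factor with the highest level per kilobase was Dnaaf5, at 3.31 in QZ1-hi and 6.68 in QZ1-lo. Dnaaf5 (-1.01) and Dnaaf2 (-0.47), whose level is uncertain, had smaller log2 fold changes than the median of this role (-1.59). How far single genes carry the difference in share was not tested. Outer arm heavy chains held 10.5% ± 1.48 in QZ1-hi and 13.3% ± 0.658 in QZ1-lo, and inner arm heavy chains 19.2% ± 5.02 and 26.2% ± 1.73, the latter overlapping between groups through QZ1-hi replicate 4. These shares are given as a description, without a test.

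**Figure D3:**
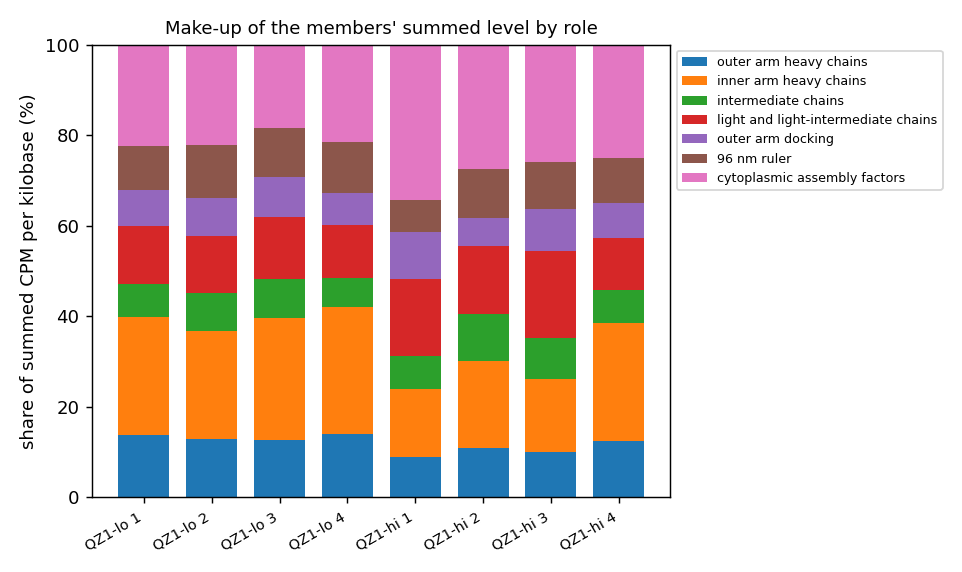
Share of the members' summed CPM per kilobase held by each role, in percent, as stacked bars from 0 to 100 for the 4 QZ1-lo and 4 QZ1-hi libraries. The assembly factor segment at the top takes 18.4% to 22.4% in QZ1-lo and 25.1% to 34.3% in QZ1-hi.

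Members were also set against Foxj1, the master regulator of motile ciliogenesis, within each library. Foxj1 had 13.4, 35.8, 22.8 and 20.7 CPM in QZ1-hi and 68.7, 114, 131 and 75.5 CPM in QZ1-lo (-2.07 ± 0.30, adjusted p = 0.000849). The log2 ratio of a member to Foxj1, with 0.5 CPM added to both, was compared between groups by a two-sided exact permutation test over 70 assignments, for 34 members. None passed after Benjamini-Hochberg adjustment (smallest adjusted p = 0.162, exact permutation test), in a design whose smallest raw p is 0.0286. Over 34 tests, no member could pass unless many reached that smallest value together. The adjusted result therefore cannot show whether members follow Foxj1. The smallest raw p was reached by 6 members, each with a higher ratio in all QZ1-hi libraries: Dnah14 (1.77), Dnal4 (1.69), Dnaaf2 (1.64), Dnal1 (1.28), Dnaaf5 (1.09) and Ccdc114 (0.57), as differences of the log2 ratio. Dnah14 lay near the 0.5 CPM added, at 0 to 0.932 CPM in QZ1-hi and 0.285 to 1.27 CPM in QZ1-lo. Its ratio thus depends mostly on Foxj1, and the level of Dnaaf2 is uncertain as described above. For the motors Dnah9 and Dnah5, the difference was -0.38 and -0.28 (raw p = 0.114 and 0.286, exact permutation test).

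Against Epcam, the gene of the epithelial protein plotted beside probe signal in the sort, none of the 34 ratios passed either (smallest adjusted p = 0.259, exact permutation test). The same limit on what could pass applied. Epcam itself was 77.4, 67.3, 45.1 and 45.05 CPM in QZ1-hi and 140.2, 122, 153 and 115 CPM in QZ1-lo (-1.17 ± 0.19, adjusted p = 0.00158). The ratio to Epcam was lower in QZ1-hi for Dnah9 (difference of the log2 ratio -1.26) and higher for Dnal4 (0.81), both at the smallest raw p of 0.0286 (exact permutation test), and the median difference over the members was -0.59.

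Another 4 dynein genes carry other symbols in the table and were left out of the counts above. Wdr63 (Dnai3), Wdr78 (Dnai4) and Casc1 (Dnai7), subunits of inner arms, were lower, at -2.30 ± 0.35, -2.08 ± 0.33 and -1.86 ± 0.32 (log2 fold change ± SE). Wdr92 (Dnaaf10), an assembly factor, was at -0.91 ± 0.29, adjusted p = 0.0502, in edgeR and at an adjusted p of 0.0156 in DESeq2.

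Genes around the arms moved in the same direction. Of 12 other partners of dynein arms and their spacing, 10 were tested and 8 fell, including Cfap43 (-2.29 ± 0.32) and Cfap44 (-2.04 ± 0.44), which tether an inner arm, the thioredoxin-like Nme9 (-2.06 ± 0.40) and the assembly factors Ttc12 (-1.20 ± 0.35) and Cfap298 (-1.06 ± 0.28). The call of Ttc12 was lost in limma-voom (adjusted p = 0.0856), where 7 of the list fell. In the radial spokes and nexin link, the structures that pass signals to the arms, 8 of 10 tested genes of 11 fell, with Drc3 at -2.35 ± 0.35 and Rsph4a at -2.14 ± 0.41. Rsph3a, at -0.49 ± 0.15, fell the least and was not called in limma-voom (adjusted p = 0.0598), where 7 of this list fell, and Rsph6a, a sperm gene, had 0 counts in all libraries.

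Dyneins that do not belong to motile axonemes gave other values. For cytoplasmic dynein 1, the motor of vesicle transport in all cells, 0 of 4 tested genes fell and 1 rose, Dync1li2, at 0.44 ± 0.12, adjusted p = 0.0275, a direction that turned to -0.03 (adjusted p = 0.933) with scaling by library size only. Its heavy chain Dync1h1 had 469, 474, 487 and 469 CPM in QZ1-hi and 570.1, 528, 521 and 441 CPM in QZ1-lo, and the groups overlapped (-0.12 ± 0.11, adjusted p = 0.562). Among 10 light chains shared with or used by cytoplasmic dynein, only Dynlrb2 fell (-2.33 ± 0.45, adjusted p = 0.00406), a roadblock chain known from ciliated cells, while its close relative Dynlrb1 was at 0.33 ± 0.16, adjusted p = 0.217. For dynein 2, the motor that carries cargo back from the tip of cilia, 2 of 4 fell, the heavy chain Dync2h1 (-1.35 ± 0.29, adjusted p = 0.00761) and Wdr60 (-0.94 ± 0.26, adjusted p = 0.0259). Wdr34, another chain of that motor, was not called in edgeR (adjusted p = 0.0512) and was lower in DESeq2 (-1.01, adjusted p = 0.0203).

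Of 9 genes of the HSP90 and R2TP chaperone system, which most cells use and which the assembly factors work with, 4 fell and none rose. The median was -0.40. Spag1, which is itself needed for arm assembly, was at -1.08 ± 0.32, adjusted p = 0.0384, in edgeR and at 0.114 in limma-voom. Ruvbl2 (-0.93 ± 0.20), Hsp90aa1 (-0.75 ± 0.17) and Hsp90ab1 (-0.40 ± 0.12) also fell, and Ruvbl1 (-0.39 ± 0.24), Rpap3 (-0.12 ± 0.20), Pih1d1 (-0.20 ± 0.22), Hspa8 (-0.09 ± 0.11) and Pih1d2 were not called. Pih1d2 had the largest fold change of the list, -1.56 ± 0.56, adjusted p = 0.0801, in edgeR, and its adjusted p was 0.025 in DESeq2 and 0.0486 in limma-voom.

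Marker genes of several cell types moved with the members. Of 12 markers of ciliated cells, Foxj1 among them, 9 fell, with a median of -2.12, and their sum ranged from 158 to 456 CPM in QZ1-hi and from 668 to 1361 CPM in QZ1-lo. The 5 markers that the study lists for ciliated epithelium, which include Foxj1, Cdh1 and Epcam, all fell (median -1.64), Fam183b narrowly (adjusted p = 0.0498, edgeR). With DESeq2 size factors 4 of the 5 were called. Cdh1 (-1.34 ± 0.18) and Epcam (-1.17 ± 0.19) are also on the study's lists for alveolar and club cells, so their fall is not particular to ciliated cells. All 5 markers of club cells, the secretory cells beside ciliated cells in the airway, fell too (median -1.89), with sums from 372 to 1062 CPM in QZ1-hi and from 1648 to 4212 CPM in QZ1-lo. In the other direction, 6 of 6 endothelial markers rose (median 3.43; 849.9 to 1990.0 CPM in QZ1-hi and from 66.8 to 255 CPM in QZ1-lo), as did 6 of 6 fibroblast and pericyte markers (median 3.32; 735 to 1477 CPM in QZ1-hi and from 18.4 to 179 CPM in QZ1-lo) and 4 of 4 mesothelial markers (median 2.94; 38.4 to 268 CPM in QZ1-hi and from 5.93 to 36.5 CPM in QZ1-lo).

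Alveolar markers were mixed. Of 6 alveolar type 2 markers, 0 fell and 1 rose, with sums from 5572 to 10170.0 CPM in QZ1-hi and from 4209 to 6589 CPM in QZ1-lo. Of 5 alveolar type 1 markers 4 fell and 1 rose, with sums from 408 to 643 CPM in QZ1-hi and from 794 to 964 CPM in QZ1-lo. The type 1 marker that rose, Pdpn (0.72 ± 0.18, adjusted p = 0.0157, edgeR), is also on the study's marker list for lymphatic endothelium. Neither of the 2 rises was called with scaling by library size only. Leukocyte markers summed from 2809 to 6041 CPM in QZ1-hi and from 2036 to 3972 CPM in QZ1-lo, and 0 of 5 were called. Most of the sum was Lyz2 alone, averaging 3600 CPM in QZ1-hi and 2534 CPM in QZ1-lo, and its product was not gated on. The sum is therefore no measure of leukocytes left after the gate. Of the genes of the gated proteins, Ptprc (CD45) averaged 131 CPM in QZ1-hi and 125 CPM in QZ1-lo, and Itgam (CD11b) 42.1 and 46.7 CPM. No listed marker was at 0 in all libraries of a group, and the part of the cell mix in the members' values was not tested.

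**Figure D4:**
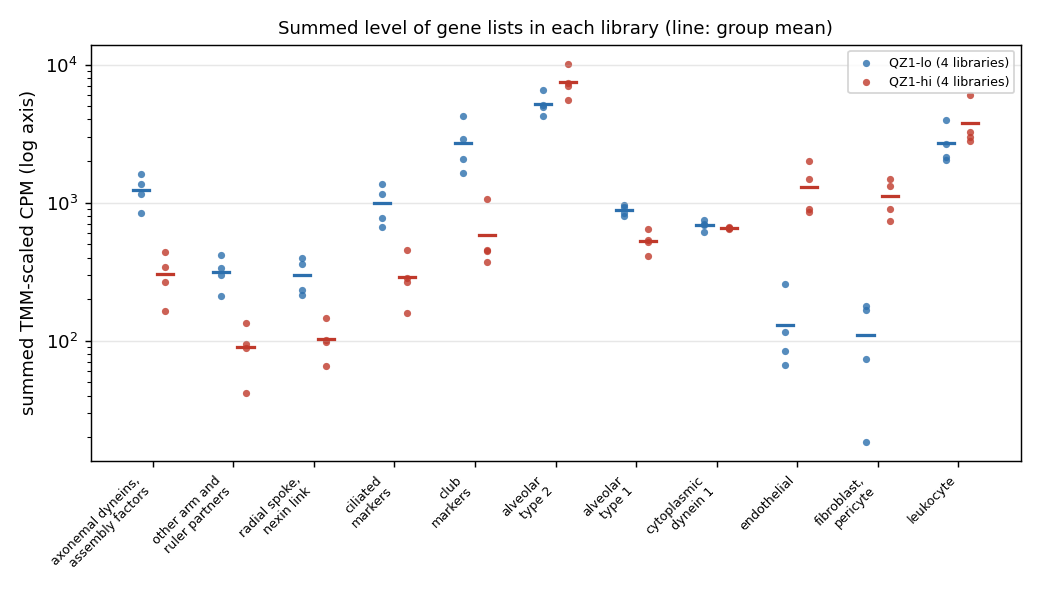
Summed TMM-scaled CPM (log axis) of the members and of related and marker gene lists in each QZ1-lo (blue) and QZ1-hi (red) library, with the group mean as a line. The members lie at 842 to 1615 CPM in QZ1-lo and 163 to 439 CPM in QZ1-hi, cytoplasmic dynein 1 overlaps between groups, and the endothelial and fibroblast lists are higher in QZ1-hi.

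A promoter sequence was found for 31 of the 36 members and not for Dnaaf1, Armc4, Lrrc6, Dnah3 and Ttc25. Both strands of the window from 250 bases before to 50 after the start were searched, in members and in all 32851 promoters of the table. The half-site GTTGCC was in 12 member promoters (38.7%) and in 12.5% of all promoters. Dnah7a, Dnah7b and Dnah7c were among the 12, and their promoters are near copies of each other rather than separate cases. The longer GTTGCCAT, which contains it, was in 2 (6.45%) against 1.35%, and TGTTTAC, a forkhead-type motif, was in 1 (3.23%) against 3.65%.

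The inverted repeat printed above was noticed after looking at these sequences. Written as GTTGC and GCAAC with 1 to 4 bases between them, it was in the promoters of Ccdc103, Dnah6, Dnah7a, Dnah7b, Dnah7c and Dnaic2, or 19.4% of the member promoters, and in 146 of all promoters (0.444%). Its letters overlap those of GTTGCC in Dnaic2. The 3 Dnah7 promoters are not separate cases, as 254 of 281 aligned bases (90.4%) were identical between Dnah7a and Dnah7c, 183 of 202 (90.6%) between Dnah7a and Dnah7b and 186 of 217 (85.7%) between Dnah7b and Dnah7c. All 6 genes were called lower in QZ1-hi, as were 28 of the 34 tested members, so the calls do not set these genes apart. A match describes the letters in the window and says nothing about binding.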

How the data were processed

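RNA-seq libraries were made with a stranded total RNA kit from 4 QZ1-hi and 4 QZ1-lo sorted cell samples. The authors deposited raw read counts per gene, obtained with Rsubread and not normalized, and the submitters' processing notes name the mm10 build and DESeq2. The aligner, annotation and strand setting are not given in the sources used here.

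The groups were compared with edgeR 4.0.16 (R 4.3.3) after TMM scaling and filterByExpr filtering (minimum count 10, minimum total 15), by its quasi-likelihood test, which covered 15583 genes, and p-values were adjusted by Benjamini-Hochberg (threshold 0.05). The SE was derived from the fold change and its F statistic, as |log2 fold change| / √F. Of 27179 Entrez identifiers, 25293 were given a symbol through the RefSeq and gene name tables. The 4 docking genes were matched through older symbols. Lengths, shared stretches of 50 bases and antisense overlap came from GENCODE M21 on GRCm38, and promoters from RefSeq. Rsph10b of the listed genes was not matched. The procedure was tested on simulated data.

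Members were described in every library where they had the largest or smallest called change of their role, or were not called with a mean of at least 1 CPM. Dnah14, Dnah5, Dnaaf6 and Dnaaf6b were added after their values were seen. Members, lists and tests were chosen with earlier results of these data known. Alternatives were DESeq2 1.42.0 (Wald test), limma 3.58.1 (voom), DESeq2 size factors, library size only, other filters, removal of mitochondrial and ribosomal RNA genes, a threshold of 0.01 and leaving out single libraries.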

Additional observations from a re-analysis of the deposited data

Results flagged for a closer look

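In 116 groups of 4 libraries that were examined for a library standing apart by Dixon's criterion, 3 went past it, where chance alone flags about 5% of groups. All concerned summed marker levels in QZ1-hi. The club cell sum was 1062 CPM in QZ1-hi replicate 2 and 373 to 456 CPM in the others. The mesothelial sum was 268 CPM in the same library and 38.4 to 66.2 CPM in the others. That library also had the highest summed level of the axonemal dynein and assembly genes in QZ1-hi, 439 CPM, and without it 29 of these genes were lower with a median log2 fold change of -2.20. The leukocyte sum was 6041 CPM in QZ1-hi replicate 4, of which Lyz2 made up 5763 CPM, and 2809 to 3269 CPM in the others. Without replicate 4, 25 of the member genes were lower, with a median of -1.88.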

How the results depend on the processing

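The count of 28 lower members stayed within 23 to 31 under every alternative listed in the methods (29 in DESeq2, 28 in limma-voom, 23 at an adjusted p under 0.01, 31 with library size only), and 0 members were higher in any of them. With each library left out in turn, 24 to 29 were lower and the median was -2.20 to -1.70. Library size only shifted all genes to a median of -0.44 and the members to -2.40, which is -1.96 relative to all genes against -1.91 with TMM, and gave 2509 lower and 882 higher genes in all. An adjusted p under 0.01 gave 665 and 902. Counting by table symbol alone left 24 lower members, and adding the renamed genes gave 31, both chosen after seeing the data. Over the single members, 511 comparisons with an alternative kept direction and side of the threshold, 24 lost and 7 gained the call, and none changed sign. Losses concerned Ccdc103, Dnaaf4, Dnaaf5, Dnaic1 and Dnal1, and gains Lrrc6, Dnah17 and Dnah8. The cause was not tested. In the 250 bases before the start alone, GTTGCC was in 22.6% of member promoters and 10.4% of all, and the inverted repeat in 16.1% and 0.377%. Both member shares count the near-copy promoters of Dnah7a, Dnah7b and Dnah7c one by one. No paired analysis was possible because the labels give the libraries neither replicate numbers nor animals, and the numbers used here follow record order. In the study's methods both compartments were collected from lung suspensions of probe-injected mice, so libraries of the groups may share animals. Which libraries do is not given, so the p-values are those of an unpaired fit, which ignores any such sharing. Depth limits Dnah14, Dnaaf6 and Dnaaf6b.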
